A study of Mus musculus with 3 samples.

Results

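The tumour natural killer (NK) cells outside cycle described here are 2092 of the 30209 cell barcodes deposited from 3 single-cell RNA libraries of sorted mouse tumour leukocytes. Members were chosen by measured transcript counts: a barcode was a member when it was absent from the deposited table of type 1 conventional dendritic cells (cDC1s), held at least 1000 genes and less than 10% mitochondrial UMIs (unique molecular identifiers, 1 per captured transcript), and had at least 1 UMI of at least 2 of *Ncr1*, *Klrb1c* and *Prf1*. It also had to have no UMI of *Cd3e* (T cells), *Mki67* (cells in cycle), *Xcr1* (cDC1s), *Cd209a* (type 2 conventional dendritic cells, cDC2s) or *C1qa* (macrophages). The values of these 8 genes therefore describe the rule, and the difference between NK cells and all other barcodes was not tested.

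The study sorted dendritic cells from tumours of MCA205 LA-OVA cells, a fibrosarcoma line that carries ovalbumin and is transplanted into mice, and mixed the sorted populations before loading. There was 1 library per genotype: WT mice, *sGsn-/-* mice, which lack secreted gelsolin, and *sGsn-/- Clec9a-/-* mice, which also lack DNGR-1, the cDC1 receptor that *Clec9a* encodes. Each library came from tumours of mice of both sexes pooled by genotype, so no genotype had a replicate. The sort gate took CD45+ CD11c+ MHCII+ CD88- cells after removal of CD3e+, NK1.1+ and other lineage-positive cells, so the NK cells here are those that passed a gate set to remove them. Values for the libraries are given in the order WT, *sGsn-/-* and *sGsn-/- Clec9a-/-* throughout, and levels are CPM, the UMIs of a gene in the summed members scaled to the usual fixed total,, as mean ± SD over the libraries (n = 3) where a mean is shown.

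NK cells kill without prior sensitisation by releasing perforin and granzymes, and the balance of activating and inhibitory receptors at their surface decides whether a target is killed. In mice they mature from a CD27+ stage to a CD11b+ stage, while a related tissue lineage, the type 1 innate lymphoid cells (ILC1s), carries CD49a and tends to lack Eomes. In tumours, NK cells secrete interferon-γ, and their XCL1 and FLT3L attract and sustain cDC1s.

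The members numbered 526, 896 and 670, with 4810332, 7503789 and 4760280 UMIs in all. Median depth was 8131.5, 6953 and 5949 UMIs per cell, below that of the deposited cDC1s at 14092, 14150 and 12231 UMIs. The WT members were thus the deepest and the *sGsn-/- Clec9a-/-* members the shallowest, and a median of 1.85%, 1.91% and 2.26% of UMIs was mitochondrial. Pairs of libraries shared 26, 28 and 27 barcode sequences, and 0 of these were members in both libraries of a pair.

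The label was checked against marker genes. The rule did not use 7 of the 10 NK genes (*Gzma*, *Nkg7*, *Eomes*, *Klre1*, *Klrk1*, *Itga2* and *Il2rb*), and each of the 7 was detected in at least 10% of members. *Klrk1* was also common in cDC1s, in 75.3% of them against 94.0% of members. Of the 7, *Gzma* was the most abundant at 4832 ± 442 CPM and was found in 92.3% of members and 13.4% of cDC1s. The transcription factor gene *Eomes*, which separates NK cells from most ILC1s, was at 146, 169.9 and 152 CPM and in 60.4% of members, against 0.543% of cDC1s. The ILC1 list summed to 238, 184 and 115 CPM, with 3 of 8 genes in at least 10% of members and *Itga1* the most abundant. At least 1 UMI of this list was present in 53.6%, 46.7% and 35.1% of members, and the list summed to 91.6, 90.3 and 71.1 CPM in cDC1s. *Cxcr6* and *Il7r*, a pair of ILC1 receptors, were found in 1.57% and 3.62% of members and in 0.128% and 3.03% of cDC1s. By these 7 genes the members were thus NK cells, with a minority that carried *Itga1*.

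Other lineages were measured in the same way. The T cell list summed to 873, 831 and 809 CPM, against 6632, 5413 and 6358 CPM in the 191 T cells of the same libraries. Its most abundant gene in the members was the constant-region gene *Trbc1* at 441 ± 21.8 CPM (87.3% of members and 2.63% of cDC1s), and *Trac* was found in 13.8% and 1.12%. *Cd3d* was at 18.2 ± 5.95 CPM and *Cd3e* at 0 by the rule. Lists for ILC2 or ILC3 cells, B cells, mast cells or basophils, and stroma or tumour each summed to less than 2 CPM in every library, and all 4 neutrophil genes were at 0. Cells in cycle were checked too, since the rule used only *Mki67*. Summed over *Top2a*, *Birc5*, *Cdk1*, *Cenpf*, *Ube2c* and *Tpx2*, mitotic transcripts were at 56.5, 60.6 and 52.5 CPM, against 1380.1, 1531 and 1290.0 CPM in the 563 NK cells with *Mki67* and 20.05, 24.7 and 20.2 CPM in cDC1s. No UMI of these 6 genes was present in 77.2%, 74.0% and 83.1% of members, so mitotic transcripts were low but not absent. S-phase transcripts were more common: the list of 13 genes summed to 624, 689 and 579 CPM, against 1874, 1859.5 and 1766 CPM in the cycling NK cells and 197, 207 and 209 CPM in cDC1s. At least 1 S-phase UMI was present in 83.5%, 83.8% and 80.4% of members, and outside cycle here means only without a *Mki67* UMI.

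The members also carried transcripts of antigen-presenting cells. The 8-gene MHC class II and myeloid list (*Cst3*, *Lyz2*, *H2-Aa*, *H2-Ab1*, *H2-Eb1*, *Cd74*, *Apoe* and *C1qb*) summed to 3778, 3579 and 3578 CPM, against 70034, 70896 and 70396 CPM in cDC1s, and *Cd74* was its most abundant gene at 1226 ± 99.1 CPM. The median member had 0.131%, 0.135% and 0.132% of its UMIs on this list, and 3, 8 and 4 members had more than 5%. A small number of cells thus held much of the signal: without the 6% of members with the highest share, the list summed to 1247, 1203 and 1206 CPM. The macrophage or monocyte list summed to 142, 89.4 and 129 CPM and the cDC2 list to 62.8, 64.2 and 65.5 CPM, in which *Itgam* was the most abundant gene. *Xcr1*, *Cd209a* and *C1qa* were at 0 by the rule. What free RNA and doublets contributed to these transcripts was not tested.

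The targeted genes were read in the members as a check of genotype. *Clec9a* was at 4.16, 4.40 and 0 CPM, or 20, 33 and 0 UMIs, against 168, 168 and 0.0931 CPM in cDC1s. No *Clec9a* UMI was found in the 670 members of the *sGsn-/- Clec9a-/-* library (exact 95% interval up to 0.549% of cells with a UMI). *Gsn*, whose secreted form is missing in both mutants, was at 16.8, 17.2 and 13.2 CPM in NK cells and 152, 169 and 167 CPM in cDC1s, so *Gsn* transcripts were present in all 3 libraries.

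Values on either side of the marker threshold were compared. Just outside the rule, with 1 of the 3 marker genes, were 69, 128 and 105 barcodes with *Gzma* at 1192, 2165 and 2595 CPM. Members with exactly 2 marker genes had *Gzma* at 3060.0, 4250.0 and 3975 CPM, and those with all 3 had 4800.3, 5182 and 5845 CPM. The granule gene *Nkg7* was at 527, 743 and 992 CPM outside, at 1458, 1586 and 1745 CPM with 2 genes and at 1747, 1779 and 1867 CPM with 3. Both genes were therefore higher with each added marker in every library. All 3 marker genes were present in 1409 of the 2092 members (67.4%). The gene minimum left out few: 4, 5 and 13 barcodes within 100 genes under the minimum met the other parts, and 2, 8 and 8 members lay within 100 genes over it. More were left out for a single myeloid gene: 22, 29 and 35 for *Xcr1* alone, 52, 68 and 71 for *Cd209a*, and 51, 60 and 59 for *C1qa*. *Gzma* was found in 90.9% to 96.6% of the barcodes in these sets. Its level was 2056, 3518 and 2064 CPM in those left out for *Xcr1*, and 2464, 3288 and 2039 CPM for *Cd209a*. For *C1qa* it was 4181, 4562 and 4093 CPM. Barcodes left out for *Xcr1* had median depths of 16416, 14043 and 18625 UMIs, deeper than the members. What doublets contributed to these sets was not tested.

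NK cells made up 4.12% of WT barcodes (526 of 12763, exact Clopper-Pearson 95% interval 3.78–4.48%), 10.96% of *sGsn-/-* barcodes (896 of 8173, 10.3–11.7%) and 7.23% of *sGsn-/- Clec9a-/-* barcodes (670 of 9273, 6.71–7.77%). These intervals cover counting error only. The share was thus lowest in WT and highest in the *sGsn-/-* library, and the intervals did not overlap. Since the sort removed NK1.1+ and CD3e+ cells and mixed populations in chosen proportions, with 1 library per genotype, genotype and sorting cannot be told apart in these shares. With *Mki67*, a further 182, 235 and 146 barcodes met the rest of the rule, so that 25.7%, 20.8% and 17.9% of all NK cells carried that cycle gene. Of the sort gate's own genes, *Ptprc* (CD45) was at 1160 ± 46.4 CPM, *Itgax* (CD11c) at 82.6 ± 7.17 CPM in 41.6% of members, and *Klrb1c*, which encodes NK1.1, at 387, 419.8 and 371 CPM.

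**Figure D1:**
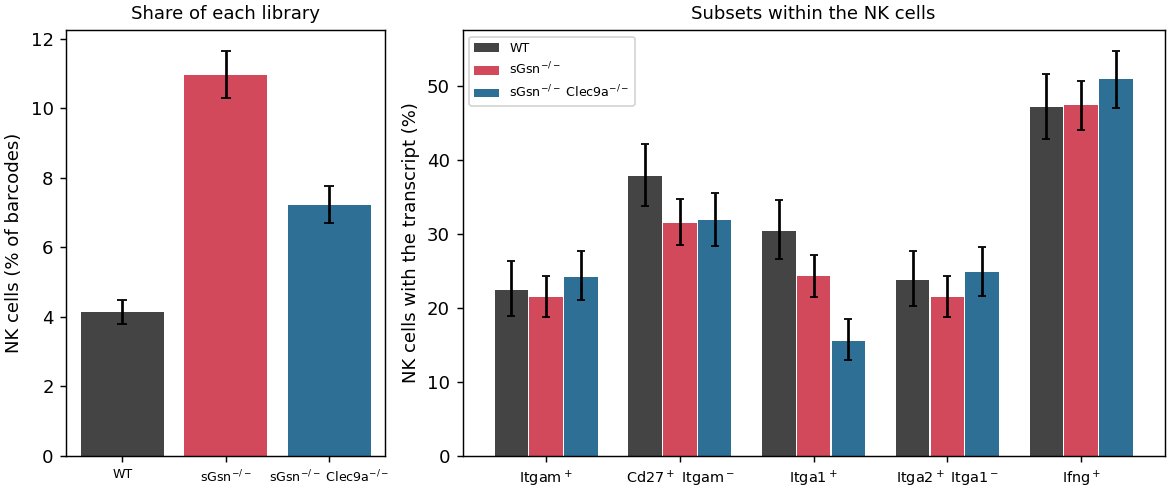
Left, NK cells as a percentage of all barcodes in each library; right, percentage of NK cells in each of 5 transcript-defined subsets. Bars are libraries and capped lines are exact Clopper-Pearson 95% intervals, for counting error only. The *Itga1*+ share is 30.4% in WT and 15.5% in *sGsn-/- Clec9a-/-*, while the *Ifng*+ share lies between 47.1% and 50.9%.

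The killing machinery was transcribed in most of these cells. Perforin (*Prf1*), which forms pores in the target membrane and was part of the rule, was at 395, 389 and 392 CPM. The tryptase granzyme A (*Gzma*) was at 4349, 4932 and 5215 CPM, making it 1 of the 15 most abundant genes after ribosomal protein and mitochondrial genes were set aside. Granzyme B (*Gzmb*), which cleaves caspases, was at 1143, 1033 and 1046 CPM in 83.4% of members (4.29% of cDC1s), whereas granzyme C (*Gzmc*) was at 1543, 1278 and 959 CPM in only 31.5% of them (6.37% of cDC1s). *Gzmc* was thus confined to fewer cells than *Gzmb*. *Nkg7* and *Srgn*, which encode a granule membrane protein and the proteoglycan that packs granule contents, were at 1742 ± 78.3 and 1409 ± 54.3 CPM. *Serpinb9*, the inhibitor that protects a killer cell from its own granzyme B, was at 414 ± 14.9 CPM. The death ligand genes *Fasl* and *Tnfsf10* (TRAIL) were at 130.4 ± 12.4 and 34.3 ± 10.7 CPM. Summed over its 22 genes, the cytotoxic list, *Prf1* included, was at 12572, 12707 and 12654 CPM, with little spread between libraries.

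Receptors and their adaptors were read next. NKp46 (*Ncr1*) and NK1.1 (*Klrb1c*), both in the rule, were at 423 ± 27.3 and 392 ± 25.01 CPM, and NKG2D (*Klrk1*) was at 485 ± 9.28 CPM. Of the signalling adaptors of these receptors, *Tyrobp* (DAP12) was at 2105 ± 199 CPM, *Fcer1g* at 2081 ± 21.5 CPM and *Hcst* (DAP10) at 516 ± 44.6 CPM. *Klrd1* encodes CD94, the partner of the NKG2 chains, and was at 1024 ± 51.1 CPM. Among the Ly49 genes, *Klra4* and *Klra8*, which encode the activating receptors Ly49D and Ly49H, were at 487 ± 70.6 and 365 ± 38.7 CPM. Their inhibitory relatives *Klra7* (Ly49G), *Klra9* (Ly49I) and *Klra3* (Ly49C) were at 381 ± 41.9, 214 ± 3.02 and 142 ± 24.2 CPM. The checkpoint genes *Tigit*, *Lag3*, *Havcr2* (TIM-3) and *Pdcd1* (PD-1) were at 10.2 ± 2.03, 9.05 ± 2.07, 5.92 ± 2.19 and 1.31 ± 1.14 CPM.

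A list of 21 transcription factor genes of the NK lineage summed to 3251, 3343 and 3203 CPM in members. It was at 2656, 2611 and 2527 CPM in cDC1s, so the list as a whole was not particular to NK cells. *Eomes* and *Tbx21* (T-bet), the paired T-box factors of NK development, were at 156 ± 12.3 and 67.3 ± 7.02 CPM, and *Id2*, which restrains E proteins, was at 390.1 ± 29.6 CPM. *Runx3* was at 543 ± 48.0 CPM and *Irf8* at 858 ± 33.1 CPM, the latter a factor shared with cDC1s, where it was at 1198 ± 19.5 CPM. Receptor genes for the cytokines that drive NK cells were present: *Il2rb*, the chain shared by the IL-2 and IL-15 receptors, was at 701 ± 21.2 CPM, *Il18r1* at 99.5 ± 7.60 CPM and *Il12rb2* at 54.9 ± 3.55 CPM. For homing, the integrin chain *Itgb2* was at 184 ± 15.9 CPM and the egress receptor *S1pr1* at 11.7 ± 3.52 CPM.

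Secreted products included ligands that act on dendritic cells. *Xcl1*, whose receptor XCR1 marks cDC1s, was at 2083, 1729 and 1723 CPM in 86.9% of members (8.13% of cDC1s), and at 7.04 ± 5.82 CPM in the cDC1s themselves. *Flt3l*, the growth factor of the dendritic cell lineage, was at 47.4, 49.0 and 36.8 CPM in 27.6% of members (5.70% of cDC1s). Transcripts of both cDC1-directed genes were thus found in every library, those of *Xcl1* in most cells and those of *Flt3l* in a minority at this depth. *Ccl5*, a chemokine for T cells and myeloid cells, was at 3432, 4058 and 5413 CPM, and its relative *Ccl4* was at 685, 805 and 1011 CPM. *Ifng* was at 207, 191 and 249 CPM in 48.5% of members, against 0.820% of cDC1s at their greater median depth. *Tnf* was low, at 9.40 ± 1.56 CPM in 5.76% of members (11.1% of cDC1s). For scale, the non-coding nuclear RNA *Malat1* had the highest mean at 19342 ± 910.3 CPM, with ribosomal protein and mitochondrial genes set aside. In the *sGsn-/- Clec9a-/-* library the non-coding *Gm42418* lay above that mean, at 24766 CPM.

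Effector genes were among those that varied most between members. After 1988 members were thinned to 3104 UMIs each, the variance of UMIs over cells divided by their mean had a median of 1.10 over 2017 genes, close to the value of 1 that counting alone gives. It was 37.8 for *Gzmc*, 36.8 for *Ccl5*, 28.7 for *Ccl4*, 17.1 for *Gzma*, 12.2 for *Ccl3* and 11.7 for *Xcl1*. The granzyme and chemokine genes were therefore unevenly shared among NK cells of equal depth. *Gzmc* was found in 24.0% of the thinned cells and *Ccl5* in 77.7%. The interferon-induced chemokine *Cxcl10* had 13.5, 22.7 and 7.06 in the separate libraries while found in 8.40% of thinned cells, and the tumour-associated cytokine *Spp1* (osteopontin) had 25.5, 6.42 and 5.97, highest in WT. Genes of the antigen-presenting list were in the same range, with 27.3 for *Cd74* and 13.1 for *H2-Ab1*. The non-coding RNA *Gm42418* had 12.5, 23.3 and 26.7 in the separate libraries and *Malat1* had 23.8, 24.5 and 18.9.

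The integrin chain CD11b (*Itgam*) and the TNF receptor family member CD27 (*Cd27*) mark late and early stages of NK maturation, and the rule used neither. Members with at least 1 *Itgam* UMI were compared with members that had *Cd27* and no *Itgam*, in sums per library, to ask whether the transcripts of maturation differ between them. The *Itgam*+ cells numbered 118, 192 and 162 (22.4%, 21.4% and 24.2% of members) and the *Cd27*+ cells 199, 282 and 213 (37.8%, 31.5% and 31.8%), and *Itgam* was found in 8.74% of cDC1s. At 3104 UMIs per cell these shares were 12.1%, 14.0% and 14.7% for *Itgam*+ cells, and 22.9%, 19.3% and 21.7% for *Cd27*+ cells. Median depth was 6694.5, 5570.5 and 5156 UMIs in *Itgam*+ cells and 9474, 8466 and 6817 UMIs in *Cd27*+ cells, so the *Itgam*+ cells were shallower in every library. By edgeR's quasi-likelihood test, with p-values adjusted by Benjamini-Hochberg, 512 of 8069 genes were higher in *Itgam*+ cells (6.35%) and 563 were lower (6.98%) at an adjusted p under 0.05, and the median log2 fold change over all genes was 0.01. Without TMM scaling factors the split was 682 higher and 345 lower. The count was 461 without the WT library, 232 without the *sGsn-/-* library and 100 with cells thinned to 3104 UMIs.

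Genes of the CD11b stage were higher in *Itgam*+ cells: 11 of 11 tested genes of that list rose (median log2 fold change 1.01). The chymase gene *Cma1* was at 51.9, 81.8 and 79.8 CPM in *Itgam*+ cells and 7.17, 13.2 and 19.3 CPM in *Cd27*+ cells. It was several times higher in the *Itgam*+ cells of each library (log2 fold change 2.39, SE 0.25, adjusted p = 2.28e-05, higher in 3 of 3 libraries). *Zeb2*, the repressor that drives terminal NK maturation, was at 87.6, 128 and 97.8 CPM in *Itgam*+ cells and 36.3, 42.8 and 36.2 CPM in *Cd27*+ cells, with no overlap between the subsets (log2 fold change 1.36, SE 0.14, adjusted p = 2.28e-05, higher in 3 of 3 libraries). The inhibitory lectin receptor gene *Klrg1*, a marker of the most mature NK cells, was at 63.1, 59.0 and 57.9 CPM in *Itgam*+ cells and 23.9, 15.7 and 35.6 CPM in *Cd27*+ cells (log2 fold change 1.24, SE 0.23, adjusted p = 0.00171, higher in 3 of 3 libraries). The subsets did not overlap for *Klrg1* either, as was so for 31.2% of all genes tested. The fractalkine receptor gene *Cx3cr1* (2.33), *Prdm1* (Blimp-1, 1.19), *Ly6c2* (1.01) and *Klf2*, a factor for trafficking genes (0.88), rose with smaller or less precise folds. After thinning 9 of 9 tested genes of the list rose, while *Cx3cr1* and *Prdm1* were too low to be tested. Of the CD27 stage list, 6 of 11 tested genes fell and 0 rose (median -0.40). *Ltb* (lymphotoxin-β) was at 109, 87.0 and 98.8 CPM in *Itgam*+ cells and 182, 170.4 and 161 CPM in *Cd27*+ cells, lower in *Itgam*+ cells of each library (log2 fold change -0.89, SE 0.11, adjusted p = 0.000106, higher in 0 of 3 libraries). *Cd160* (-1.10), *Thy1* (-0.69) and *Emb* (-0.65) also fell, though the *Thy1* call ended in the members with the fewest myeloid UMIs. *Tcf7*, which encodes TCF-1 (-0.40), was called too, but not by DESeq2, with cells thinned or without mitotic transcripts. Nor was it called without the 6% of members with most myeloid UMIs or in the members with the fewest.

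Effector genes split by product. *Ccl5* was at 7248, 7811 and 9413 CPM in *Itgam*+ cells and 2035, 2629.7 and 3919 CPM in *Cd27*+ cells. The *Itgam*+ cells had the higher level in each library (log2 fold change 1.43, SE 0.19, adjusted p = 0.000151, higher in 3 of 3 libraries). *Ccl4* was at 1154, 1625 and 1862 CPM in *Itgam*+ cells and 512, 446 and 722 CPM in *Cd27*+ cells, and its relative *Ccl3* at 199, 203 and 239 CPM in *Itgam*+ cells and 33.5, 72.7 and 100.1 CPM in *Cd27*+ cells. Both rose, *Ccl4* with a log2 fold change of 1.39 and *Ccl3* with 1.57. The cDC1 chemokine *Xcl1* went the other way, at 1806, 1070.5 and 1337 CPM in *Itgam*+ cells and 2268, 1976 and 1979.8 CPM in *Cd27*+ cells (log2 fold change -0.64, SE 0.15, adjusted p = 0.00756, higher in 0 of 3 libraries). The *Xcl1* call ended by DESeq2, without the 6% of members with most myeloid UMIs (log2 fold change -0.45) and in the members with the fewest, a set chosen after seeing the data (-0.27), while *Ccl3*, *Ccl4* and *Ccl5* stayed called in both sets. Of the secreted list, 4 of 13 tested genes rose and 2 fell (median 0.47). *Gzma* was at 5698, 6606 and 7104 CPM in *Itgam*+ cells and 3312, 3674 and 4211 CPM in *Cd27*+ cells, and rose (log2 fold change 0.71). *Gzmc* was at 537, 421 and 63.8 CPM in *Itgam*+ cells and 2045, 1591 and 1535 CPM in *Cd27*+ cells, a fall in all libraries (log2 fold change -2.44, SE 0.38, adjusted p = 0.00052, higher in 0 of 3 libraries). Granzymes A and C therefore moved in opposite directions, and without the rule gene *Prf1*, 3 of 15 tested genes of the cytotoxic list rose while 3 fell.

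Early activation genes were also higher in *Itgam*+ cells, with 12 of 19 tested genes up and 0 down (median 0.50), among them the AP-1 subunit genes *Fos* (0.85) and *Jun* (0.50) and the NF-κB inhibitor gene *Nfkbia* (0.67). With cells thinned 3 of 17 tested genes of the list rose, *Nfkbia* but neither *Fos* nor *Jun* among them, and in the members with the fewest myeloid UMIs 4 of 17 did. Of the transcription factor list, 7 of 19 tested genes rose and 2 fell (median 0.28), while 3 of 16 rose with cells thinned and 5 of 19 in the members with the fewest myeloid UMIs. *Eomes* (0.45) was called in neither of these sets, and *Irf8* (0.32), which cDC1s also express, only in the thinned cells. *Rora* (-1.51), a factor tied to innate lymphoid cells, was 1 of the 2 that fell in all members, and its call ended without the WT library and in the members with the fewest myeloid UMIs. Among receptor genes, 1 of 19 tested activating receptor and adaptor genes rose and 2 fell (median 0.05). That list includes the rule genes *Ncr1* and *Klrb1c*, neither of which was called. In the list of Ly49, CD94 and checkpoint genes 3 of 20 rose and 2 fell (0.11), or 5 of 14 and 0 with cells thinned. In that list *Klra4* (0.53) and *Klra8* (0.59), which encode activating receptors, rose beside *Klrg1*, and *Klrc1* (NKG2A, -0.75) and *Ctla4* (-1.29) fell. Neither fall was called in thinned cells or in the members with the fewest myeloid UMIs. S-phase genes were lower in *Itgam*+ cells: 10 of 12 tested fell (median -1.17), with summed levels of 432, 488 and 358 CPM against 742, 772 and 718 CPM. The replication helicase gene *Mcm5* was at 29.5, 32.4 and 19.95 CPM in *Itgam*+ cells and 63.6, 57.7 and 52.5 CPM in *Cd27*+ cells (log2 fold change -1.15, SE 0.17, adjusted p = 0.000309, higher in 0 of 3 libraries). The summed S-phase levels were lower in all libraries, but with cells thinned 0 of 6 tested S-phase genes were called (median -0.52). Of the genes associated with NK cells against ILC1s, 9 of 10 tested rose (median 0.65), while of the ILC1 genes 1 of 12 rose and 4 fell (0.07), or 0 and 6 without the 6% of members with most myeloid UMIs (-0.89). Among those that rose, *Cma1*, *Cx3cr1*, *Klra4*, *Klra8*, *Klrg1* and *Ly6c2* also belong to the CD11b stage list. In the homing list 5 of 16 rose (0.18), and in the cytokine receptor list 3 of 22 (0.21), against 1 of 14 and 1 of 15 with cells thinned. Of the interferon-stimulated list 2 of 16 rose and 1 fell (0.03), but 0 rose and 2 fell without the 6% (-0.44). In members with no UMI of the 6 mitotic genes, a set chosen after seeing the data, 5 of 12 S-phase genes still fell.

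Several large folds towards *Itgam*+ cells, beside those of *Cma1* and *Cx3cr1*, belonged to genes known from myeloid cells. *Ccr1*, a chemokine receptor gene, was at 43.8, 36.9 and 9.98 CPM in *Itgam*+ cells and 3.83, 0.356 and 2.41 CPM in *Cd27*+ cells (log2 fold change 3.802, SE 0.53, adjusted p = 0.000241, higher in 3 of 3 libraries). The interferon-induced membrane protein gene *Ifitm1* was at 738, 563 and 199.5 CPM in *Itgam*+ cells and 66.9, 72.0 and 17.5 CPM in *Cd27*+ cells (log2 fold change 3.11, SE 0.37, adjusted p = 5.11e-05, higher in 3 of 3 libraries), and the matrix protein gene *Tgfbi* at 129, 66.4 and 75.8 CPM in *Itgam*+ cells and 17.2, 9.62 and 10.9 CPM in *Cd27*+ cells (log2 fold change 2.75, SE 0.26, adjusted p = 8.24e-06, higher in 3 of 3 libraries). The MHC class II and myeloid list moved with them, with 7 of 8 genes up (median 2.05) and summed levels of 9354, 10812 and 6662 CPM in *Itgam*+ cells against 2479.7, 1599 and 1149.5 CPM in *Cd27*+ cells. Its most abundant gene, *Cd74*, was at 3446, 3637 and 2320.5 CPM in *Itgam*+ cells and 869.7, 466 and 332 CPM in *Cd27*+ cells. Of the macrophage or monocyte list, 4 of 5 tested genes rose, and of the cDC2 list 2 of 3, while *C1qa*, *Cd209a* and *Xcr1* were at 0 by the rule. Without the 6% of members with most of these UMIs the list summed to 1400.2, 1484 and 1404 CPM against 1126, 1065 and 1107 CPM, and 1 of 8 genes rose. *Ifitm1* then had a log2 fold change of -0.27 and *Tgfbi* one of 0.51, both past no threshold, and *Ccr1* was too low to be tested. In the same cells 11 of 11 genes of the CD11b stage list still rose, among 758 genes called in all. In the members with the least of these UMIs, a set chosen after seeing the data, 8 of 10 tested genes of the CD11b stage list rose. What the myeloid transcripts contributed to the other differences was not tested. Among called genes at 20 CPM or more in a subset, the largest folds towards *Cd27*+ cells, beside *Gzmc*, were those of *Krt83* (-2.98), *Smco4* (-2.79) and the semaphorin gene *Sema6d* (-2.40), all too low to be tested with cells thinned.

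**Figure D2:**
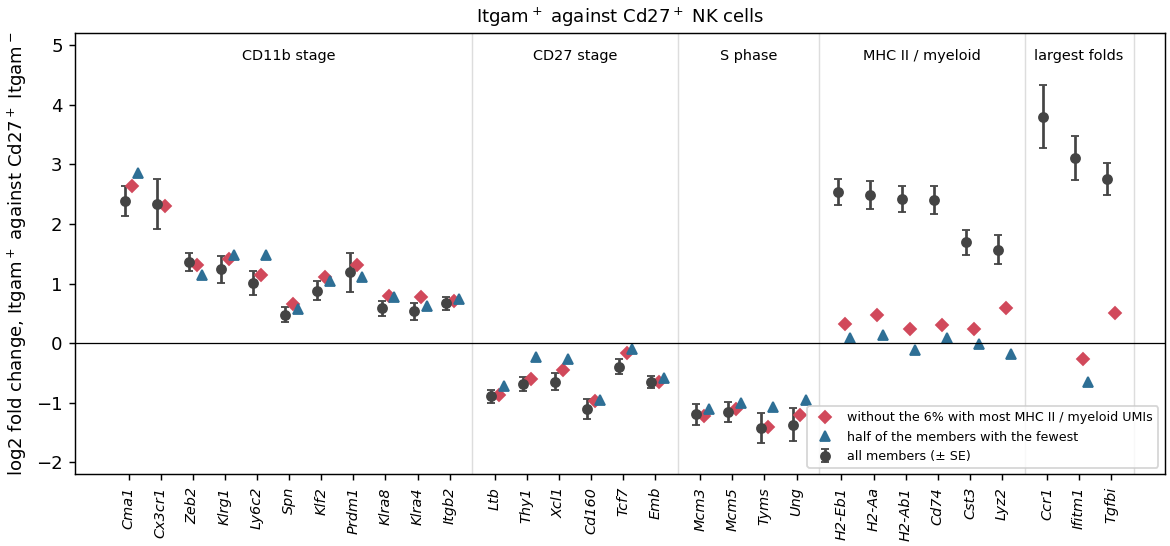
Log2 fold change between *Itgam*+ NK cells and *Cd27*+ NK cells without *Itgam* for named genes in 5 groups. Circles are all members with bars of 1 SE (n = 3 libraries), diamonds are members without the 6% with most MHC class II and myeloid UMIs, and triangles are the members with the fewest. CD11b stage genes stay above 0 in every set in which they were tested, while the myeloid genes drop towards 0, *Ifitm1* from 3.11 to -0.27.

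The collagen-binding integrin chains CD49a (*Itga1*) and CD49b (*Itga2*) separate ILC1-like and tissue-resident cells from conventional NK cells, and the rule used neither. Members with *Itga1* were compared with members that had *Itga2* and no *Itga1*, to see how far the transcripts of the lineages differ among the NK cells. The *Itga1*+ cells numbered 160, 217 and 104, or 30.4% (26.5–34.5%), 24.2% (21.4–27.2%) and 15.5% (12.9–18.5%) of members, and the *Itga2*+ cells 125, 192 and 166 (23.8%, 21.4% and 24.8%). At 3104 UMIs per cell the *Itga1*+ shares were 14.1%, 12.3% and 8.07% and the *Itga2*+ shares 14.6%, 12.8% and 16.9%. The *Itga1*+ share was thus lowest in the *sGsn-/- Clec9a-/-* library, which was also the shallowest. *Itga1* was at 64.2, 56.9 and 31.9 CPM in NK cells and 36.8, 27.4 and 26.5 CPM in cDC1s, where it was found in 26.5% of cells at the greater median depth given above, so an *Itga1* UMI was not particular to NK cells. *Itga2* was found in 0.172% of cDC1s. Median depth was 10270, 10715 and 8823.5 UMIs in *Itga1*+ cells and 6637, 5794.5 and 5266.5 UMIs in *Itga2*+ cells.

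By edgeR's quasi-likelihood test, with p-values adjusted by Benjamini-Hochberg, 430 of 7485 genes were higher in *Itga1*+ cells (5.74%) and 436 lower (5.82%), with a median log2 fold change of -0.00469 over all genes. Without TMM factors the split was 279 higher and 502 lower. The count was 426 without the WT library, 74 without the *sGsn-/-* library and 168 with cells thinned before the split.

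Chemokine genes differed in both directions. *Ccl5* was at 1059, 974 and 1570.0 CPM in *Itga1*+ cells and 6464, 7526 and 8316 CPM in *Itga2*+ cells. The *Itga1*+ cells were several times lower in each library (log2 fold change -2.57, SE 0.16, adjusted p = 5.16e-09, higher in 0 of 3 libraries). *Ccl3* was at 32.7, 28.3 and 19.7 CPM in *Itga1*+ cells and 149, 171 and 182 CPM in *Itga2*+ cells (log2 fold change -2.54, SE 0.16, adjusted p = 5.16e-09, higher in 0 of 3 libraries), and *Ccl4* fell as well (log2 fold change -1.72). *Ifng* was at 117, 117 and 114 CPM in *Itga1*+ cells and 294, 249.5 and 248 CPM in *Itga2*+ cells, with subsets that did not overlap over libraries, as for 29.0% of all genes tested (log2 fold change -1.12, SE 0.11, adjusted p = 3.13e-06, higher in 0 of 3 libraries). *Xcl1* was at 2212, 1981 and 2036 CPM in *Itga1*+ cells and 2062, 1187 and 1293 CPM in *Itga2*+ cells, and *Flt3l* at 54.0, 60.1 and 47.8 CPM in *Itga1*+ cells and 41.3, 31.6 and 33.4 CPM in *Itga2*+ cells. Both were modestly higher in *Itga1*+ cells of each library (log2 fold changes 0.52 and 0.70), and both calls ended by DESeq2, with cells thinned (0.44 and 0.43) and in the members with the fewest myeloid UMIs (0.22 and 0.72). In all, 3 of 11 tested secreted genes rose and 5 fell (median -0.44). *Ccl1*, a ligand of CCR8, was at 131, 20.2 and 181 CPM in *Itga1*+ cells and 35.2, 1.47 and 2.87 CPM in *Itga2*+ cells and rose (log2 fold change 3.15, SE 0.73, adjusted p = 0.0101, higher in 3 of 3 libraries). It rested on few cells, since 5 cells held 93.6%, 86.6% and 97.7% of the *Ccl1* UMIs of all members. The call ended by DESeq2, without the *sGsn-/- Clec9a-/-* library (log2 fold change 2.21) and in members without mitotic transcripts (1.05).

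Granule and death-ligand genes divided. *Gzmc* was at 2578, 2389.7 and 2087 CPM in *Itga1*+ cells and 873, 632 and 185 CPM in *Itga2*+ cells, and *Tnfsf10* at 59.5, 62.8 and 51.6 CPM in *Itga1*+ cells and 25.2, 25.02 and 9.55 CPM in *Itga2*+ cells. Both were higher in *Itga1*+ cells of every library (*Gzmc*: log2 fold change 2.14, SE 0.28, adjusted p = 7.83e-05, higher in 3 of 3 libraries). The call for *Gzmc* ended without the *sGsn-/-* library, where the log2 fold change was 2.21, and that for *Tnfsf10* in the members with the fewest myeloid UMIs (0.98). *Gzma* (-0.60) and *Fasl* (-0.66) fell, *Fasl* not with cells thinned, and without the rule gene *Prf1*, 3 of 16 tested cytotoxic genes rose and 5 fell. Of the lineage lists, 9 of 10 tested genes associated with NK cells against ILC1s fell (median -0.85, and 5 of 10 after thinning). Of the ILC1 list, 3 of 12 tested genes rose with 0 down (median 0.35). The difference between the lists was not tested. *Cma1* was at 1.64, 6.20 and 4.69 CPM in *Itga1*+ cells and 51.3, 59.6 and 76.4 CPM in *Itga2*+ cells, the largest fall among the named genes (log2 fold change -3.77, SE 0.30, adjusted p = 2.31e-07, higher in 0 of 3 libraries). *Inpp4b*, a phosphoinositide phosphatase gene of the ILC1 list, was at 74.7, 73.7 and 45.0 CPM in *Itga1*+ cells and 20.1, 14.7 and 12.4 CPM in *Itga2*+ cells (log2 fold change 2.15, SE 0.22, adjusted p = 5.3e-06, higher in 3 of 3 libraries). *Eomes* (log2 fold change -0.51) and the Ly49 genes *Klra4* (-0.99) and *Klra8* (-0.97) fell too, but *Eomes* was not called in thinned cells or in the members with the fewest myeloid UMIs. The *Itga1*+ cells were thus lower in genes of conventional NK cells than the *Itga2*+ cells were, while most ILC1 genes did not pass the test.

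Genes tied to circulation were read next. *S1pr1*, which guides lymphocytes out of tissue, was at 6.0, 3.49 and 4.69 CPM in *Itga1*+ cells and 16.1, 25.8 and 27.7 CPM in *Itga2*+ cells (log2 fold change -2.28, SE 0.33, adjusted p = 0.000209, higher in 0 of 3 libraries). The subsets did not overlap, and *Klf2*, a factor that induces *S1pr1*, fell with it (-1.39). The *S1pr1* call ended without the *sGsn-/-* library, and the gene was too low to be tested with cells thinned. In the homing list 7 of 13 tested genes fell and 0 rose (median -0.47), or 3 of 11 after thinning. *Rasgrp2* (-2.21), which activates the integrin switch Rap1, the kinase gene *Sgk1* (-1.76), *Klf3* (-1.97) and *As3mt* (-2.31) fell too, with *Rasgrp2* and *As3mt* too low to be tested after thinning and *Klf3* not called without the *sGsn-/-* library. Receptor genes for IL-18 (*Il18rap*, -1.01) and IL-12 (*Il12rb2*, -0.92) fell, as did 7 of 22 tested genes of the cytokine receptor list with 0 up (median -0.30), or these 2 of 15 with cells thinned. Of the CD11b stage list, 8 of 10 tested genes fell (median -0.98). Of the CD27 stage list, 4 of 11 rose and 1 fell (median 0.13).

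Of the early activation list, 13 of 19 tested genes fell and 1 rose (median -0.65), and 8 of 18 fell in members without mitotic transcripts. The gene that rose, *Tnfrsf9* (4-1BB, 0.42), was not called by DESeq2, with cells thinned, without the 6% of members with most myeloid UMIs, without mitotic transcripts or in the members with the fewest myeloid UMIs. With cells thinned before the split, 10 of 16 tested genes of this list and 6 of 9 of the CD11b stage list fell. The chaperone genes *Dnajb1* (-0.51) and *Hspa1b* (-0.80) fell with them, while *Hspd1* (0.47) rose. After thinning 2 of 8 fell (*Dnajb1* and *Hsp90aa1*) and 0 rose, so *Hspa1b* and *Hspd1* were not called there. S-phase genes were higher in *Itga1*+ cells, 7 of 12 tested (median 0.69), with summed levels of 708, 885 and 679 CPM against 583, 531 and 538 CPM. After thinning 0 of 4 tested S-phase genes rose (median 0.51), and in members without mitotic transcripts 1 of 11 did (0.30), so the S-phase calls were fewer in both sets. Other genes that rose were *Igflr1*, a receptor gene of the TNF receptor family, at 42.0, 36.1 and 24.4 CPM in *Itga1*+ cells and 5.03, 3.68 and 3.82 CPM in *Itga2*+ cells (log2 fold change 3.13, SE 0.32, adjusted p = 5.3e-06, higher in 3 of 3 libraries), *Sema6d* (2.68), *Krt83* (1.76) and *Spsb1* (1.57). All 4 were too low to be tested with cells thinned, and the calls for the last 3 ended without the *sGsn-/-* library. The MHC class II and myeloid list had 0 of 8 genes called (median -0.29), at 2505, 3182 and 4789.9 CPM in *Itga1*+ and 4815, 4529 and 2372 CPM in *Itga2*+ cells. Without the 6% of members with most of these UMIs, 3 of 8 fell (*Cd74*, *H2-Aa* and *H2-Eb1*), with sums of 1156, 968 and 1046 CPM against 1348, 1426 and 1227 CPM. Checkpoint and Ly49 genes were mixed, 5 of 18 up and 3 down (median -0.05), with *Lag3* (1.43), *Ctla4* (1.10) and *Cd96* (0.48) among those that rose. None of these 3 was called in thinned cells or in the members with the fewest myeloid UMIs. Of the activating receptor and adaptor list 5 genes beside the rule gene *Klrb1c* fell and 0 rose, but after thinning only *Tyrobp* fell. Of the transcription factor list 2 of 19 rose and 7 fell (median -0.32), and of the interferon-stimulated list 1 of 15 rose and 3 fell (-0.40), against 1 up and 2 down, and 0 up and 1 down, with cells thinned.

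**Figure D3:**
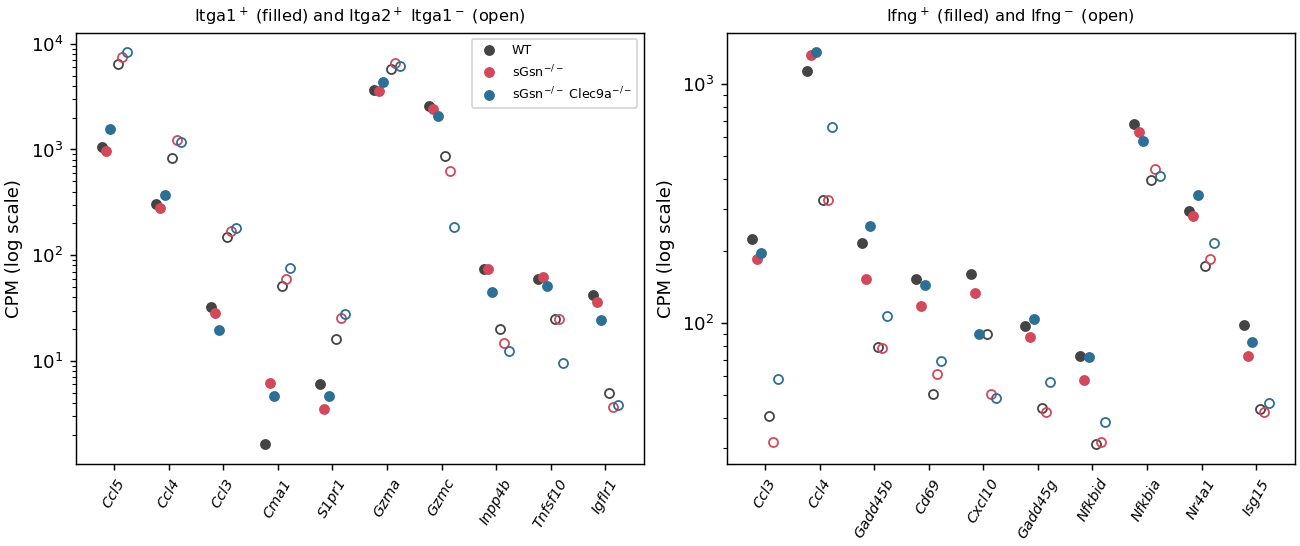
Levels (CPM, log scale) of named genes in the summed cells of each library: left, *Itga1*+ (filled) against *Itga2*+ *Itga1*- (open); right, *Ifng*+ (filled) against *Ifng*- (open). Each point is 1 library. *Ccl5* lies between 974 and 1570.0 CPM in *Itga1*+ cells and between 6464 and 8316 CPM in *Itga2*+ cells.

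Interferon-γ is the signature cytokine of NK cells. *Ifng* was not part of the rule, and members with at least 1 *Ifng* UMI were compared with the rest to see which genes accompany it. The *Ifng*+ cells numbered 248, 424 and 341 (47.1%, 47.3% and 50.9% of members), with median depths of 7467, 6786.5 and 5936 UMIs against 8708.5, 7000 and 5962 UMIs in the other members. The *Ifng*+ cells were thus no deeper than the rest, and at 3104 UMIs per cell their shares were 32.8%, 31.3% and 36.7%. By edgeR's quasi-likelihood test, with p-values adjusted by Benjamini-Hochberg, 20 of 9043 genes were higher in *Ifng*+ cells (0.221%) and 0 lower (0.0%), with 699 genes at an unadjusted p under 0.05 and a median log2 fold change of -0.01 over all genes. DESeq2 called 37 genes, 33 up and 4 down. The subsets of 1 library come from the same pool of mice, and with library as a block 314 genes were called, 209 up and 105 down, with all 20 among them. The count was 11 without the WT library and 35 without the *sGsn-/- Clec9a-/-* library.

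Other secreted products led the list. *Ccl3* was at 225, 185 and 197 CPM in *Ifng*+ cells and 41.0, 31.9 and 58.6 CPM in *Ifng*- cells (log2 fold change 2.22, SE 0.16, adjusted p = 2.09e-06, higher in 3 of 3 libraries). The subsets were far apart for *Ccl3* in all libraries. *Ccl4* was at 1129, 1319 and 1353 CPM in *Ifng*+ cells and 325, 327 and 662 CPM in *Ifng*- cells (log2 fold change 1.51, SE 0.21, adjusted p = 0.0021, higher in 3 of 3 libraries). *Csf2* (GM-CSF), a growth factor for myeloid cells, was at 31.6, 21.8 and 11.6 CPM in *Ifng*+ cells and 3.39, 2.58 and 0.425 CPM in *Ifng*- cells, the largest fold of the comparison (log2 fold change 3.21, SE 0.40, adjusted p = 0.00147, higher in 3 of 3 libraries). All 3 were higher in every library, and 3 of 14 tested secreted genes rose with 0 down (median 0.47). *Xcl1* was at 2010.2, 2046 and 1939 CPM in *Ifng*+ cells and 2142, 1434 and 1503 CPM in *Ifng*- cells (log2 fold change 0.22), higher in 2 of 3 libraries and called with library as a block, where 7 of the 14 rose and 1 fell.

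Some early activation genes rose beside them, as did *Gadd45b* and *Gadd45g*. *Cd69*, an early surface marker that holds lymphocytes in tissue, was at 153, 117 and 144 CPM in *Ifng*+ cells and 50.8, 61.3 and 69.3 CPM in *Ifng*- cells (log2 fold change 1.17, SE 0.13, adjusted p = 0.000607, higher in 3 of 3 libraries). *Nr4a1*, a nuclear receptor gene induced by antigen and activating receptors, was at 294, 279 and 343 CPM in *Ifng*+ cells and 174, 184 and 216 CPM in *Ifng*- cells (log2 fold change 0.66, SE 0.11, adjusted p = 0.0183, higher in 3 of 3 libraries). Both genes were higher in the *Ifng*+ cells of every library. The stress-response gene *Gadd45b*, a partner of p38 signalling, was at 216, 153 and 255 CPM in *Ifng*+ cells and 79.4, 78.8 and 107 CPM in *Ifng*- cells, and its relative *Gadd45g* rose with a log2 fold change of 0.99. *Nfkbia*, the inhibitor that NF-κB induces against itself, was at 676, 625 and 577 CPM in *Ifng*+ cells and 395, 441 and 410.0 CPM in *Ifng*- cells (log2 fold change 0.57, SE 0.08, adjusted p = 0.0021, higher in 3 of 3 libraries). The other IκB-type genes *Nfkbid* (0.97) and *Nfkbiz* (0.68) and the AP-1 genes *Fosb* (0.82) and *Jun* (0.69) rose as well. Of the early activation list, 5 of 19 tested genes rose (median 0.57), and 16 of 19 with library as a block. Heat shock chaperone genes had 0 of 8 called (median 0.34), but 5 of 8 rose with library as a block, 3 of 8 with cells thinned and 2 of 8 without the 6% of members with most myeloid UMIs. What tissue handling contributed to these transcripts was not tested.

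Some interferon-stimulated genes rose as well. *Isg15*, a ubiquitin-like modifier, was at 98.5, 73.2 and 83.6 CPM in *Ifng*+ cells and 43.7, 42.8 and 46.3 CPM in *Ifng*- cells (log2 fold change 0.91, SE 0.12, adjusted p = 0.0021, higher in 3 of 3 libraries). *Cxcl10*, which recruits CXCR3+ lymphocytes, was at 159.8, 133 and 90.2 CPM in *Ifng*+ cells and 90.3, 50.5 and 48.9 CPM in *Ifng*- cells (log2 fold change 0.999, SE 0.20, adjusted p = 0.0464, higher in 3 of 3 libraries). The *Cxcl10* levels of the subsets touched, at 90.2 and 90.3 CPM, and its call ended in 5 settings, with log2 fold changes of 0.81 without the *sGsn-/-* library and 0.44 in members with all 3 marker genes. With *Ifit1* (1.45), 3 of 16 tested genes of the list rose (median 0.58), and 9 of 16 with library as a block. With cells thinned 1 of 14 rose, *Cxcl10*, where *Isg15* was not called (log2 fold change 0.64) and *Ifit1*, like *Csf2*, was too low to be tested. The remaining called genes were *Crtam* (0.78), an adhesion receptor gene of activated lymphocytes, *Icam1* (0.79), *Pim1* (0.65), *Ppp1r15a* (0.58) and *Tagap* (0.97), with *Crtam* not called after thinning. Of the cytotoxic list, which includes the rule gene *Prf1*, 0 of 19 tested genes were called in either direction (median 0.02). So were 0 of 21 Ly49, CD94 and checkpoint genes and 0 of 19 transcription factors. Over all genes 0.221% were called. With library as a block 1, 3 and 4 genes of these lists rose and 1 transcription factor gene fell, and with cells thinned 1, 1 and 3 rose (*Gzmb* in the cytotoxic list) while *Gzmc* fell. *Gzma* was at 4339.6, 4994 and 5241 CPM in *Ifng*+ cells and 4357, 4875 and 5191 CPM in *Ifng*- cells. Of the MHC class II and myeloid list 0 of 8 genes were called. With cells thinned 4 of 8 fell (*Cd74*, *H2-Aa*, *H2-Ab1* and *H2-Eb1*), and with library as a block 2 of 8 rose (*Cd74* and *H2-Eb1*).

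Promoters were read for the called genes, which include targets of NF-κB. The motif was thus picked with these genes known, and its share among them was not tested. In the RefSeq promoter table (build GRCm38.p6, 250 bases before to 50 after each start), 16 of the 20 genes were matched. The NF-κB motif GGGRNWYYCC, searched on both strands, was present in 4 of the 16 (*Cxcl10*, *Fosb*, *Nfkbia* and *Nr4a1*), against 1175 of all 27025 promoters (4.35%). The AP-1 motif TGANTCA was present in 1 of the 16 (6.25%, *Cxcl10*), against 2144 of all promoters (7.93%), and it did not overlap the NF-κB matches. A match is a description, not a site of binding. The promoters of *Cxcl10* (chr5:92348840-92349139, minus strand), which holds 2 matches, and of *Nfkbia* (chr12:55492598-55492897, minus strand), which encodes the NF-κB inhibitor, are shown 5′ to 3′ with the NF-κB matches in capitals.
Cxcl10: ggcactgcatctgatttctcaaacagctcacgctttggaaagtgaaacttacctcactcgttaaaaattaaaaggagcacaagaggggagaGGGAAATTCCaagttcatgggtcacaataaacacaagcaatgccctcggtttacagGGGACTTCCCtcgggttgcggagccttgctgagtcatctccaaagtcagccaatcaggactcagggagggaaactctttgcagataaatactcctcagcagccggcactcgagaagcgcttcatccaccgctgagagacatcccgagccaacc
Nfkbia: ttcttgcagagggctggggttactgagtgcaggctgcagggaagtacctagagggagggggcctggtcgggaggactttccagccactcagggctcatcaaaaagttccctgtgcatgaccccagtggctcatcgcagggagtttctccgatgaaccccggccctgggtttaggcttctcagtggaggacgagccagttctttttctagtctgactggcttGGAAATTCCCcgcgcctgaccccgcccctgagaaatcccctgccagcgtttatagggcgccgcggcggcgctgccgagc

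Secreted gelsolin severs actin filaments, the ligand that DNGR-1 binds on dead cells, and so limits that binding. Loss of secreted gelsolin was read here between *sGsn-/-* and WT. DNGR-1 is a receptor of cDC1s, and its loss was read between *sGsn-/- Clec9a-/-* and *sGsn-/-*. Each genotype had 1 library, so neither comparison was tested, and both use the *sGsn-/-* library. Intervals are exact Poisson 95% intervals, for counting error only. Among 2645 genes at 50 CPM or more in either library, 0 were higher by a log2 ratio of 1 or more in the *sGsn-/-* NK cells than in WT (0.0%) and 4 were lower by as much (0.151%). Those described here are *Ccl1*, *Spp1* and *Hist1h2ap*.

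*Ccl1* was at 26.8 CPM (23.2–30.8) in *sGsn-/-* and 141 CPM (130.1–152) in WT NK cells, a log2 ratio of -2.37. It came from few cells: 21 and 14 members held a UMI, and 5 cells held 86.6% and 93.6% of the UMIs. In members with all 3 marker genes the ratio turned to 0.63. *Spp1*, a secreted matrix cytokine, was at 126 CPM (118–134) and 336 CPM (319–352) (log2 ratio -1.41), and 5 WT cells held 57.0% of its UMIs there. The histone gene *Hist1h2ap* was at 80.8 CPM (74.5–87.5) and 203 CPM (191–216) (-1.33), and the ratio was -0.55 in members without mitotic transcripts. So *Ccl1* and *Spp1* rested on a few cells, and the ratio of *Hist1h2ap* was smaller without mitotic transcripts.

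Between *sGsn-/- Clec9a-/-* and *sGsn-/-* NK cells, 8 of 2600 genes passed the fold (0.308%), 3 higher (0.115%) and 5 lower (0.192%). *Cebpb*, a transcription factor gene of stress and inflammation, was at 43.7 CPM (38.0–50.1) in *sGsn-/- Clec9a-/-* and 176 CPM (167–186) in *sGsn-/-* cells, the largest ratio of this comparison. It was found in 25.1% and 66.1% of members, so the lower level extended over many cells, and WT members had 215 CPM. The log2 ratio of *Cebpb* was -1.65 in cycling NK cells and -1.68 in cDC1s, so the *sGsn-/- Clec9a-/-* library was lower in both. *Ppp1r14b*, an inhibitor of protein phosphatase 1, was at 76.0 CPM (68.4–84.3) and 201 CPM (191–212) (-1.40, and -1.19 in cDC1s). The RNA-processing genes *Arglu1* (-1.05) and *Tnrc6c* (-1.07) and the non-coding *1810026B05Rik* (-1.18) were also lower, with -0.78, -0.80 and -1.10 in cDC1s. The interferon-inducible *Ifi27l2a* was at 129 CPM (119–139.6) and 38.6 CPM (34.3–43.4) (1.73), with 52.9% of its *sGsn-/- Clec9a-/-* UMIs in 5 cells. The non-coding *Gm42418* (1.11) and the mitochondrial leucyl-tRNA synthetase gene *Lars2* (1.01) were higher, with 0.94 and 0.69 in cDC1s. Of the 8 genes, *Ifi27l2a* rested on a few cells, and the others shifted the same way in cDC1s of the same libraries.

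Of the genes of the 17 lists at 50 CPM or more, 0 passed the fold in either comparison, and 0.151% and 0.308% of all genes at that level did. *Gzmb* was at 1143, 1033 and 1046 CPM and *Klrk1* at 484, 476 and 494 CPM, with small spreads. Some levels were ordered over the libraries. *Ccl5* was at 3432, 4058 and 5413 CPM, lowest in WT and highest in *sGsn-/- Clec9a-/-*, whereas *Gzmc* was at 1543, 1278 and 959 CPM and *Itga1* at 64.2, 56.9 and 31.9 CPM in the opposite order. *Ccl5* and *Gzmc* are among the genes called between *Itga1*+ and *Itga2*+ cells. *Itga1* defines that split, so the order of the *Itga1*+ share rests on the same UMIs and is no separate result. With 1 library per genotype, genotype, depth and sort cannot be told apart in these orders.

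On mm10 (GRCm38, GENCODE M21), the 3 genes of the rule lie apart, *Ncr1* (ENSMUSG00000062524) at chr7:4337724-4345164, *Klrb1c* (ENSMUSG00000030325) at chr6:128778485-128789215 and *Prf1* (ENSMUSG00000037202) at chr10:61297833-61304680. *Klrb1c* sits in the NK gene complex of chromosome 6, which also holds *Cd69* (chr6:129267325-129275436) and *Clec9a* (chr6:129408862-129424763). The chymase gene *Cma1* (chr14:55941451-55944675) lies on chromosome 14 near *Gzmb* (chr14:56258838-56262260) and *Gzmc* (chr14:56231441-56234656), while *Gzma* is at chr13:113093825-113100981, on the chromosome of *Itga1* (chr13:114953096-115101964) and *Itga2* (chr13:114833081-114932100). *Ccl3* (chr11:83647844-83649355), *Ccl4* (chr11:83662584-83664683) and *Ccl5* (chr11:83525778-83530518), which moved in 1 direction in each integrin comparison, are neighbours on chromosome 11. *Xcl1* is at chr1:164931644-164935527, *Flt3l* at chr7:45129788-45136432 and *Ifng* at chr10:118441046-118445892.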

How the data were processed

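The deposited matrices hold raw UMI counts that the authors made with Cell Ranger 6.0.1 on mm10, and the authors analysed them with Seurat. Members and gene lists were chosen with earlier results of these data known. UMIs of the members were summed per library and subset (the genes that define a subset were left out of its results), and genes kept by filterByExpr went into edgeR 4.0.16 under R 4.3.3 (TMM factors, quasi-likelihood F test, two-sided, Benjamini-Hochberg adjustment over all genes tested, threshold 0.05), with libraries as the replicates (n = 3, each of another genotype). SE was taken as the fold change on the log2 scale over the root of F. Subsets of 1 library share a pool of mice, and their deviations correlated by 0.149, 0.129 and 0.207 in the *Ifng* comparison, by 0.0871, 0.0740 and 0.160 in the *Itgam* comparison and by 0.0635, 0.0622 and 0.0555 in the *Itga1* comparison; the fit with library as a block was an alternative. Genotype ratios were log2 ratios of CPM with 0.5 added. The edgeR fit was also run on simulated sums with known fold changes. Those sums held no library effect and no pairing of subsets, so they cannot show how the fit handles either.

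Named genes were members of the gene lists, the rule genes, *Clec9a* and *Gsn*, the 8 largest and 8 smallest fold changes among called genes at 20 CPM or more in a subset, the 5 largest and 5 smallest genotype ratios among genes at 50 CPM or more, the 15 genes with the highest variance to mean ratio and the 15 most abundant. Other called genes of the *Ifng* comparison were named after their values were seen. Some genes that the rule names are not reported here. Alternatives were DESeq2 1.42.0, no TMM factors, no filter, the block, each library left out, cells thinned to 3104 UMIs (the 5th percentile), all 3 marker genes, and removal of the 6% of members with the highest share of MHC class II and myeloid UMIs; members without mitotic transcripts and members with the least of those UMIs were added after seeing the data. Tables were made in Python 3.11.15 with numpy 2.4.6, pandas 2.3.3 and scipy 1.17.1, and plots with matplotlib 3.10.9.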

Additional observations from a re-analysis of the deposited data

Results flagged for a closer look

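*Klra5*, which encodes the receptor Ly49E, was at 30.0, 35.3 and 19.7 CPM in *Itga1*+ cells and at 6.04, 9.57 and 23.9 CPM in *Itga2*+ cells. It was called by edgeR's quasi-likelihood test, adjusted by Benjamini-Hochberg (log2 fold change 1.24, adjusted p = 0.0207) although it was higher in only 2 of 3 libraries, with the *sGsn-/- Clec9a-/-* library in the other direction. That library's difference from the others was not tested.

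Among the deposited cDC1 barcodes, which the rule leaves out, 6 held at least 2 of *Ncr1*, *Klrb1c* and *Prf1*, with 2 in WT, 4 in *sGsn-/-* and 0 in *sGsn-/- Clec9a-/-*. They were singled out because no comparison used them, and the difference was not tested.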

How the results depend on the processing

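Of the values for single named genes, 592 kept their side of the threshold, or moved by less than the spread (levels) or a fixed margin (genotype ratios). Of the others, 29 became weaker, 29 moved and 4 reversed. Genes too low to be tested in a setting were not counted there. With thinned cells only 3 of the 16 genes named by fold in the *Itgam* comparison were counted, and 8 of 16 in the *Itga1* comparison. For *Itgam*+ against *Cd27*+ cells the count of 1075 called genes became 568 with DESeq2, 232 to 1013 with a library left out, 100 with thinned cells, 698 with all 3 marker genes, 542 without mitotic transcripts and 217 in the members with the least MHC class II and myeloid UMIs. *Ifitm1* reversed to -0.27 without the 6% highest in those UMIs and to -0.66 in the members with the least. For *Itga1*+ against *Itga2*+ cells the count of 866 became 389 with DESeq2, 74 to 606 with a library left out, 168 with thinned cells, 333 without mitotic transcripts and 192 in the members with the least of those UMIs. For *Ifng*+ against *Ifng*- cells the count of 20 became 37 with DESeq2, 142 with no filter, 11 to 35 with a library left out, 76 with thinned cells, 39 without the 6%, 44 without mitotic transcripts and 36 in the members with the least. The library block moved that count to 314, left the other counts within 1.5 times of their value and ended 2 calls between *Itga1*+ and *Itga2*+ cells, 1 of them *Oasl1*. Genes past the fold between *sGsn-/-* and WT numbered 2 of 4 with thinned cells, and *Ccl1* reversed to 0.63 with all 3 marker genes and to 0.56 in the members with the least. NK shares were 2.92%, 7.51% and 4.55% with all 3 marker genes required. The summed cytotoxic list, at 12644.6 ± 67.8 CPM, was 13328 CPM with all 3 marker genes, 13079.7 CPM without the 6%, 13001.7 CPM without mitotic transcripts, 12156.6 CPM in the members with the least, and 12613.3 to 12680.6 CPM with a library left out. Where fewer cells or libraries were used, fewer counts entered the test; otherwise the cause was not tested. With a library left out each subset had 2 sums, and edgeR pools their spread over genes. Since the shallowest library had 5949 UMIs in its median cell, a gene at 0 in a cell may still be expressed there.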

Other observations

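Transcripts of plasmacytoid dendritic cells were concentrated in a few *sGsn-/-* members. The list *Siglech*, *Ccr9*, *Ly6d*, *Klk1* and *Cox6a2* summed to 3.12, 33.8 and 2.73 CPM, with 107 *Siglech* UMIs in 10 *sGsn-/-* members, of which 5 cells held 95.3%.

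Mice of both sexes were pooled, and the share of sexed cells with Y-linked transcripts and no *Xist* was 14.4%, 27.9% and 24.2% in NK cells (66 of 457, 193 of 692 and 131 of 541), against 19.3%, 36.3% and 23.6% in cDC1s. It was lowest in WT and highest in *sGsn-/-* in both cell types. By the study's counts of mice, WT had the largest proportion of males. The share of cells depends on how readily *Xist* and the Y-linked genes are detected, so it does not measure the proportion of male mice.

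*Hspa8*, a constitutive chaperone gene, was at 1716, 1711 and 1818 CPM in NK cells. Other chaperone genes that stress induces were at 85.4, 81.8 and 70.8 CPM (*Hspa1a*) and 55.5, 40.4 and 48.1 CPM (*Hspa1b*).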
